A study of Mus musculus with 8 samples.

Results

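The Rhox genes are a cluster of homeobox genes on the mouse X chromosome. Here 5 of them, Rhox5, Rhox6, Rhox9, Rhox10 and Rhox13, were followed in E15.5 germ cells of both sexes with and without Snf5. Each locus whose name holds one of these symbols was taken from the expression tables, and each symbol was found at 1 locus in the female and 1 locus in the male table, which makes 5 of the 22647 gene names that both tables share. These 5 genes were chosen because of their levels in these same libraries, so their values are given as a description and without a test.

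Rhox genes encode transcription factors of the reproductive tissues: members of the family are known from the testis, the ovary, the placenta and germ cells. Most of them are silenced by DNA methylation and by repressive histone marks in tissues that do not use them. In the germ line, members are switched on at different times, which makes the cluster a known readout of germ cell stage.

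For RNA-Seq, germ cells were sorted by Oct4-EGFP, a transgene in which the Oct4 promoter drives a green fluorescent protein, from embryos at embryonic day 15.5. The labels give a C57BL/6 background, whereas the study's methods give a mix of C57BL/6, 129/Sv and ICR. Snf5, also called Smarcb1, encodes a core part of SWI/SNF, a complex that remodels chromatin. There were 2 libraries for each of female Snf5 Ctrl, female Snf5 CKO, male Snf5 Ctrl and male Snf5 CKO germ cells, which makes 8 in all, described as biological duplicates. Per the study's methods, the Snf5 CKO cells carried a floxed allele (fx) over a null allele (Δ) and TNAP-Cre, a Cre knocked into the Alpl gene that is active in primordial germ cells, and the control libraries mixed germ cells of Snf5 fx/+, Snf5 fx/Δ and Snf5 fx/+ with TNAP-Cre embryos, so some control cells also carried Cre or 1 null allele. All groups shared the Oct4-EGFP sort. The study's supplement lists more than 1 mouse for each male control and each female library, but 1 mouse for each male Snf5 CKO sort. Recombination by TNAP-Cre is spread over several days and is incomplete, and somatic cells of the gonad keep Snf5.

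Expression was read as FPKM, a count of fragments divided by the length of the transcript and by the fragments mapped in the library, so that levels of genes of different length can be compared. The tables hold no counts and the absolute depth is unknown, and from the steps between the lowest values the best-fitting depths lay between 0.946 and 2.43 times that of control replicate 1 in the same table, but for each library the next best depth differed from the best by a factor of 2, so these ratios are uncertain. Snf5, listed as Smarcb1, was 85.3% lower in female and 93.9% lower in male Snf5 CKO libraries, although the values cover the whole gene and not only its deleted part. The Y-linked gene Ddx3y had a listed value of 0 in each female library. The germ cell genes Ddx4 and Dazl were at 203 FPKM or more in all libraries. Oct4, listed as Pou5f1, whose promoter drives the transgene of the sort, lay above both controls in both Snf5 CKO libraries of each sex. By the rule for calls given below, it was called higher in females only. It was at 8.63 and 16.7 FPKM in female controls and at 295 and 333 FPKM in female Snf5 CKO (log2 fold change 4.59, adjusted p = 0.0001 from limma). In males it was at 399 and 436 FPKM in the controls and at 620 and 648 FPKM in Snf5 CKO (0.60, adjusted p = 0.0945 from limma). Whether this changed which cells were sorted was not tested. The 2 tables were normalized separately, so no test was made between the sexes, and values of both sexes are set side by side only. Fold changes are Snf5 CKO over control on the scale of log2(FPKM + 1), which understates the change of low genes, with the standard error (SE) of the limma fit over all genes of the table. Calls of lower or higher needed an absolute log2 fold change of 1 or more together with an adjusted p (Benjamini-Hochberg, limma) under 0.05. As sorted cells were measured in bulk, fewer cells with a transcript and less transcript per cell cannot be told apart.

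All Rhox loci of the tables lie within 916 kb of the X chromosome, from 37213805 to 38129966 of mm10. Rhox5 spans 37754608 to 37808878, Rhox6 37827055 to 37829857 and Rhox9 37899095 to 37901770 in the female table, and Rhox10 (38066475 to 38071688) and Rhox13 (38120840 to 38129966) are at the other end of the cluster. The promoters of the 3 members with a window in the promoter set used here are shown. Rhox genes are known to be controlled by methylation of CpG sites, and these 3 genes behaved in different ways below. Each line gives 250 bases before and 50 bases from the start of the gene on GRCm38.p6, the assembly that mm10 represents, on the plus strand, 5′ to 3′, with CG dinucleotides in capitals. In both tables the start of each of the 3 loci is the same base as the start used here. Rhox6 and Rhox9 had no window in this set and are not shown. The windows are chrX:37754358-37754657 for Rhox5, chrX:38066225-38066524 for Rhox10 and chrX:38120590-38120889 for Rhox13.

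Rhox5: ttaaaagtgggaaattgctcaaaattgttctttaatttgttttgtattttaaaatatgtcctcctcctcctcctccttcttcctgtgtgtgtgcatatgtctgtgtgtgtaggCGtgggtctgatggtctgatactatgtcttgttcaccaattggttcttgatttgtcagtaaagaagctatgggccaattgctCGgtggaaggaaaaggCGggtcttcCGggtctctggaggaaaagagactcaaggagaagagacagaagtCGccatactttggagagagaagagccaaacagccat
Rhox10: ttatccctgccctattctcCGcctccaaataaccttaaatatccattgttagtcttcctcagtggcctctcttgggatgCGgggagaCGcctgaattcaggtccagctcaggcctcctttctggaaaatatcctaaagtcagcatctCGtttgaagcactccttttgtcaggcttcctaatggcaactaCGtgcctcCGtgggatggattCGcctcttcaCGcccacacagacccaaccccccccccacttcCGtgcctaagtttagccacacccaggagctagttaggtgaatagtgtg
Rhox13: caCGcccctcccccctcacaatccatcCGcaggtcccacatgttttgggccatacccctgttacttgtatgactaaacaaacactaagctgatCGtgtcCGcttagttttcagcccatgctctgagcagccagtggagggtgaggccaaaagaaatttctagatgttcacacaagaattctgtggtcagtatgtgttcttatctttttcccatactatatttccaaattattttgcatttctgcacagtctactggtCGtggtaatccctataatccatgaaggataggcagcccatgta

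The Rhox5 and Rhox13 windows hold 5 CG dinucleotides each and the Rhox10 window holds 9, and the median of the 32851 promoter windows of RefSeq is 7. The 27 Rhox genes with a window had a median of 7 as well and ranged from 0 in Rhox1 to between 10 and 12 in the 7 copies of Rhox4. The 3 members lie inside this range, which leaves out Rhox6, Rhox7, Rhox8 and Rhox9. Methylation was not measured in these libraries. Of the short motifs searched on both strands, the E-box CACGTG is in 7.15% of all windows, TTCCCGC, which E2F6 complexes are known to bind, in 4.6% and CCTCAGG in 7.82%, and none of these was in the 3 windows. Of all 27 Rhox windows, 5 hold CACGTG, 0 hold TTCCCGC and 11 hold CCTCAGG. The GATA factor motif AGATAA is in 11.2% of all windows and in 1 of the 27 Rhox windows, that of Rhox13, where it starts 52 bases before the gene. These matches describe the letters of the windows and no binding was measured.

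Rhox5, first described as Pem, is the founding member of the family and is known from the early embryo, placenta, germ cells and Sertoli cells. In females it was at 67.0 and 134 FPKM in the controls and at 804 and 1038 FPKM in Snf5 CKO. Both Snf5 CKO libraries were far above both controls. Among the 11529 tested genes Rhox5 ranked 1802 and 847 in the control libraries and 98 and 112 in Snf5 CKO. Its mean was 9.18 times that of control (log2 fold change 3.26, SE 0.35). In males it was at 217 and 323 FPKM in the controls and at 668 and 955 FPKM in Snf5 CKO. The groups again did not overlap, but the male controls already held much Rhox5 and the difference was smaller (log2 fold change 1.59, SE 0.33). Side by side and without a test, the 4 Snf5 CKO libraries of both sexes lay between 668 and 1038 FPKM, with the female controls lowest and the male controls between them.

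Rhox6 and Rhox9, also known as Psx1 and Psx2, are paralogs that were first found in the placenta and are also expressed in primordial germ cells. Female Rhox6 was at 57.4 and 69.7 FPKM in the controls and at 267 and 319 FPKM in Snf5 CKO. Female Rhox9 was at 67.9 and 88.2 FPKM in the controls and at 628 and 690 FPKM in Snf5 CKO. Both genes were expressed in female controls at a similar level and were higher in each Snf5 CKO library. The mean of Rhox6 was 4.61 times that of control (log2 fold change 2.19, SE 0.20) and that of Rhox9 was 8.45 times that of control (3.07, SE 0.22).

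In male controls the same pair was low. Rhox6 was at 2.83 and 4.30 FPKM in the controls and at 82.1 and 110 FPKM in Snf5 CKO. Rhox9 was at 3.94 and 4.06 FPKM in the controls and at 195 and 237 FPKM in Snf5 CKO. Among the 12279 tested genes Rhox9 ranked 9153 and 9065 in the controls and 488 and 495 in Snf5 CKO, so it moved from among the less expressed genes to the more abundant ones. The ratio of the means was 27.0 for Rhox6 (log2 fold change 4.42, SE 0.26) and 54.0 for Rhox9 (5.43, SE 0.18), the largest of the members. The confidence bounds that Cufflinks gave each value, at a level that the sources used here do not state, were apart for Rhox6 and Rhox9 in all 4 pairs of a male control and a male Snf5 CKO library, whereas in females they overlapped in all 4 pairs. The bounds of Rhox5 were apart in 2 of 4 female pairs and in none of the male pairs, and those of Rhox13 overlapped in all pairs of both sexes.

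Rhox9 also gained on Rhox6. The FPKM of Rhox9 was 1.18 and 1.26 times that of Rhox6 in the female controls and 2.35 and 2.17 times in female Snf5 CKO. In males it was 1.40 and 0.945 times that of Rhox6 in the controls and 2.38 and 2.15 times in Snf5 CKO. The ratio was thus near 1 in the controls and above 2 in all 4 Snf5 CKO libraries. The transcripts of the pair are partly alike: of all 75-base windows, 11.6% of Rhox6 and 3.71% of Rhox9 occur in the other gene, so a part of their fragments could have been assigned to either.

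Rhox10 is known from prospermatogonia, where it promotes the formation of spermatogonial stem cells. In male controls it was at 121 and 199 FPKM, the second of the members after Rhox5, and in male Snf5 CKO it was at 2.56 and 9.07 FPKM. The highest Snf5 CKO library was far below the lowest control. The mean was 96.4% lower in Snf5 CKO (log2 fold change -4.70, SE 0.55), and the Cufflinks bounds were apart in all 4 pairs. Its SE was the largest of the members, the 2 Snf5 CKO libraries lay apart from each other, and with single libraries left out the log2 fold change was between -5.45 and -3.95. In females it was hardly detected, at 0.165 and 0.373 FPKM in the controls, 0.0659 FPKM in Snf5 CKO replicate 1 and listed at 0 in replicate 2. These values are under the minimum mean of 1 FPKM, and the gene was not fitted in females.

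Rhox13 is a member known from the germ cells of both the fetal ovary and the testis. In females it was at 81.6 and 151 FPKM in the controls and at 18.3 and 29.3 FPKM in Snf5 CKO. It was the highest member in female controls and each Snf5 CKO library lay under both of them, with a mean that was 79.5% lower (log2 fold change -2.21, SE 0.34). In males it was at 6.86 and 11.4 FPKM in the controls and at 5.39 and 11.8 FPKM in Snf5 CKO. These groups overlapped, and the log2 fold change of -0.13 (SE 0.41) moved between -0.63 and 0.37 when single libraries were left out.

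**Figure D1:**
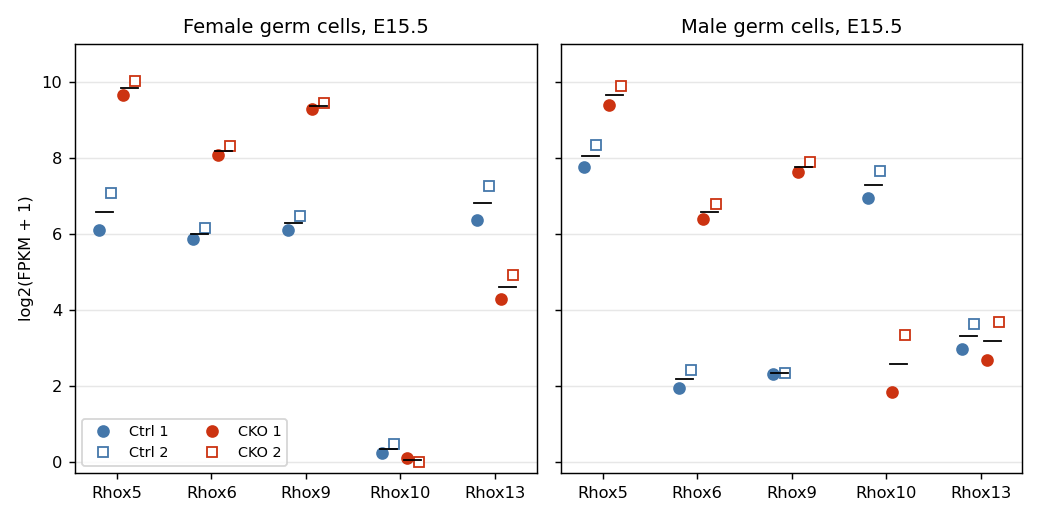
Level of the 5 Rhox members in each library as log2(FPKM + 1), for female (left) and male (right) germ cells, with controls in blue, Snf5 CKO in red, replicate 1 as circles, replicate 2 as squares and group means as black lines. Rhox5, Rhox6 and Rhox9 lie above control in both Snf5 CKO libraries of both sexes, Rhox13 lies below control in females and overlaps with it in males, and Rhox10 lies below control in males and near 0 in all female libraries.

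By the rule for calls, 3 of the 4 members tested in females were higher and 1 was lower, where 17.3% of all 11529 tested genes were called higher and 21.6% lower. In males 3 of the 5 members were higher, 1 was lower and 1 was not called, where 14.4% of all 12279 tested genes were called higher and 17.4% lower. By the libraries alone, 3 members lay above both controls in both Snf5 CKO libraries in each sex, where 36.4% of the tested genes did in females and 34.5% in males, and 1 tested member lay below them, where 45.1% and 40.0% did. As the members were picked from this contrast, nothing is read from these counts.

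The order of the members differed between the groups. In female controls Rhox13, Rhox5, Rhox9 and Rhox6 followed each other with ranges that overlapped at every step, and Rhox10 lay far under them. In female Snf5 CKO the order was Rhox5, Rhox9, Rhox6, Rhox13 and Rhox10, and no neighbours overlapped. In male controls it was Rhox5, Rhox10 and Rhox13, each apart from the next, followed by Rhox9 and Rhox6, whose ranges overlapped. In male Snf5 CKO it was Rhox5, Rhox9 and Rhox6, each apart, and then Rhox13 and Rhox10, whose ranges overlapped. Both Snf5 CKO groups had the same first 3 members in the same order, whereas neither control group had these first 3 in this order. As the members were picked by their levels in these libraries, nothing is read from this likeness.

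The summed FPKM of all Rhox loci was 409 and 618 in female controls and 1855 and 2203 in female Snf5 CKO. In males it was 414 and 621 in the controls and 1030 and 1438 in Snf5 CKO. The sum was above both controls in each Snf5 CKO library of each sex. Most of it came from members chosen by their levels in these libraries, so nothing is read from this rise. Rhox loci other than the members made up 32.9% and 28.3% of the sum in female controls and 7.39% and 5.76% in female Snf5 CKO. Their share in males was 14.9% and 12.8% in the controls and 7.44% and 8.02% in Snf5 CKO. In female controls Rhox5 made up 16.4% and 21.7% of this sum and Rhox13 made up 20.0% and 24.4%, whereas in female Snf5 CKO Rhox5 made up 43.4% and 47.1% and Rhox13 0.988% and 1.33%. In male controls Rhox10 made up 29.2% and 32.0% of the sum, and in male Snf5 CKO 0.248% and 0.631%. In male Snf5 CKO Rhox9 made up 19.0% and 16.5% of the sum, against 0.953% and 0.654% in the controls. Rhox6 made up 7.97% and 7.65% there, against 0.683% and 0.692% in the controls. Rhox5 remained the largest part of the male sum in every library, at 52.5% and 52.0% in the controls and 64.9% and 66.4% in Snf5 CKO.

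**Figure D2:**
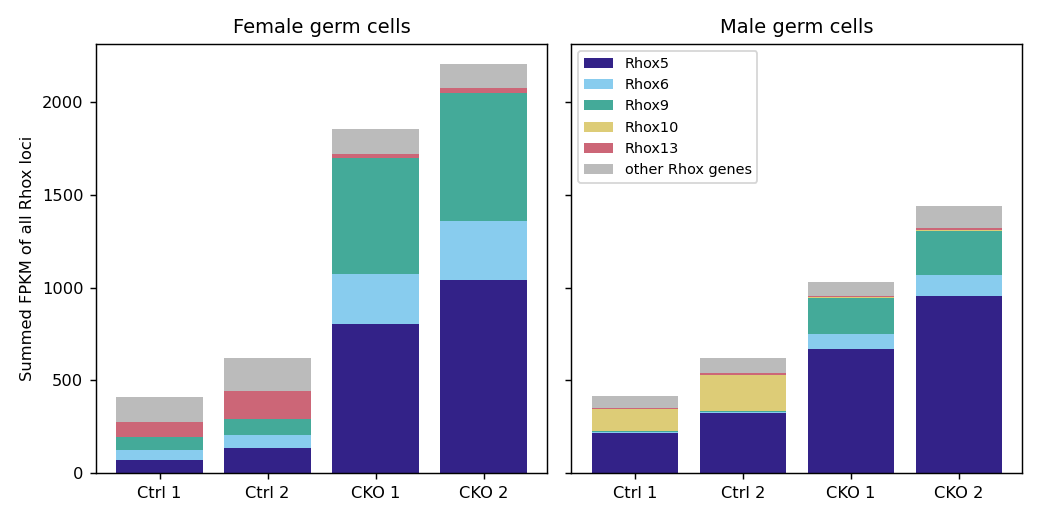
Summed FPKM of all Rhox loci in each library, stacked by member, for female (left) and male (right) germ cells. The sum lies between 409 and 621 in the 4 control libraries and between 1030 and 2203 in the 4 Snf5 CKO libraries, where Rhox5 and Rhox9 make up most of it, and the Rhox10 part of the male controls is nearly gone. Most of the sum is from members chosen by their levels in these libraries, so it is a description.

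Members were higher in replicate 2 than in replicate 1 in 19 of the 20 pairs of values, where 41.4% to 48.8% of all tested genes were higher in replicate 2 of their group. The pairs are not independent, as they come from 5 linked genes in the same libraries. FPKM totals were also higher in replicate 2 of each group, for males at 682745 and 1367710 (controls) and 692103 and 1554760 (Snf5 CKO). Unnamed loci held 5.46% to 42.1% of male FPKM. As a share of named FPKM, the Rhox sum was higher in replicate 2 of both control groups. It was lower in replicate 2 of both Snf5 CKO groups, at 0.299% against 0.306% in females and 0.143% against 0.157% in males. The replicate number is taken as a batch, as the labels name the raw files of replicates 1 and 2 in different ways, and its part in the differences between single libraries was not tested. Since each group has 1 library of each number, the log2 fold changes above are the same with a term for the replicate. The SE and adjusted p values come from fits without that term.

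The other Rhox names of the tables number 26 in each sex, and these were not used to choose the members. Of them, 11 were tested in females and 10 in males, and the others had a mean of at most 0.703 FPKM, with every copy of Rhox3 and Rhox4 and also Rhox12 among them in both sexes. In females 3 were called lower and 3 higher, where 38.9% of all tested genes were called, and in males 1 was lower and 6 were higher, where 31.8% were called. Many of the copies share sequence: the share of 75-base windows found in other transcripts was 25.5% to 97.5% for the copies of Rhox2, 46.4% to 100% for Rhox3, 54.5% to 98.2% for Rhox4 and 40.4% for Rhox7a, so the values of single copies are uncertain, whereas Rhox1, Rhox5, Rhox10, Rhox11, Rhox12 and Rhox13 shared none.

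Rhox1, at the start of the cluster, was lower in both sexes. It was at 27.8 and 39.3 FPKM in female controls and at 7.26 and 11.4 FPKM in female Snf5 CKO (log2 fold change -1.75, SE 0.26, adjusted p = 0.00148 from limma). It was at 19.5 and 26.3 FPKM in male controls and at 3.19 and 6.95 FPKM in male Snf5 CKO (-2.03, SE 0.36, adjusted p = 0.0103 from limma). In each sex the groups were apart by more than their own replicates. The direction is that of the female Rhox13 and opposite to that of every Rhox2 copy that was called. Rhox11, which lies between Rhox10 and Rhox13, was at 4.46 and 4.58 FPKM in female controls and at 0.231 and 0.247 FPKM in female Snf5 CKO (-2.16, SE 0.18, adjusted p = 0.000183 from limma). In males Rhox11 is listed at 0 in all libraries. Rhox7a was at 47.0 and 70.5 FPKM in female controls and at 21.5 and 21.2 FPKM in female Snf5 CKO (-1.39, SE 0.22, adjusted p = 0.00191 from limma). The male table names the locus at this position Rhox7, and there the log2 fold change was -0.89 (SE 0.45, adjusted p = 0.167 from limma), which became a call only without Snf5 CKO replicate 2 (-1.53).

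Each copy of Rhox2 that was called was higher in Snf5 CKO. In males these were Rhox2a, Rhox2b, Rhox2c, Rhox2g and Rhox2h, with log2 fold changes between 1.30 and 2.04 and adjusted p between 0.00381 and 0.0134 from limma. In females they were Rhox2g (1.35, adjusted p = 0.00204 from limma) and Rhox2h, the copy nearest to Rhox5, which was at 2.03 and 3.20 FPKM in the controls and at 15.4 and 18.2 FPKM in Snf5 CKO (2.31, SE 0.23, adjusted p = 0.000298 from limma). Rhox2a was the most abundant copy in females, at 26.8 and 24.9 FPKM in the controls and 42.8 and 32.5 FPKM in Snf5 CKO. It was not called (adjusted p = 0.0525 from limma), and its log2 fold change of 0.52 was also under the 1 that a call needs. Male Rhox2f was at 0.815 and 0.759 FPKM in the controls and at 1.58 and 3.31 FPKM in Snf5 CKO (adjusted p = 0.0518 from limma), and it was called without Snf5 CKO replicate 1 (log2 fold change 1.27) and with a pseudocount of 0.1 (1.43).

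Rhox8 is known from Sertoli cells, the supporting cells of the testis. It was at 0.0902 and 0.442 FPKM in female controls and at 2.42 and 2.63 FPKM in female Snf5 CKO (log2 fold change 1.49, SE 0.21, adjusted p = 0.00119 from limma). In males it was at 0.757 and 1.75 FPKM in the controls and at 5.34 and 9.68 FPKM in Snf5 CKO (1.90, SE 0.36, adjusted p = 0.012 from limma). Sertoli cell markers moved with Rhox5 and Rhox8 in males: all 11 tested of 12 markers were called higher, where 14.4% of all tested genes were. The summed FPKM of the 12 markers was between 171 and 217 in the controls and between 823 and 1083 in Snf5 CKO. Among them Amh, the anti-Müllerian hormone, was at 17.3 and 16.5 FPKM in male controls and at 69.7 and 120 FPKM in male Snf5 CKO (log2 fold change 2.37, adjusted p = 0.00399 from limma). In females 3 of 6 tested markers were higher, where 17.3% of all tested genes were. The female sum was between 14.8 and 22.7 FPKM in the controls and between 54.3 and 60.5 FPKM in Snf5 CKO. The defining genes Sox9, Amh and Dhh were at 0.132 FPKM or less in every female library. The part of Sertoli cell RNA in the male Rhox5 and Rhox8 values was not tested.

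**Figure D3:**
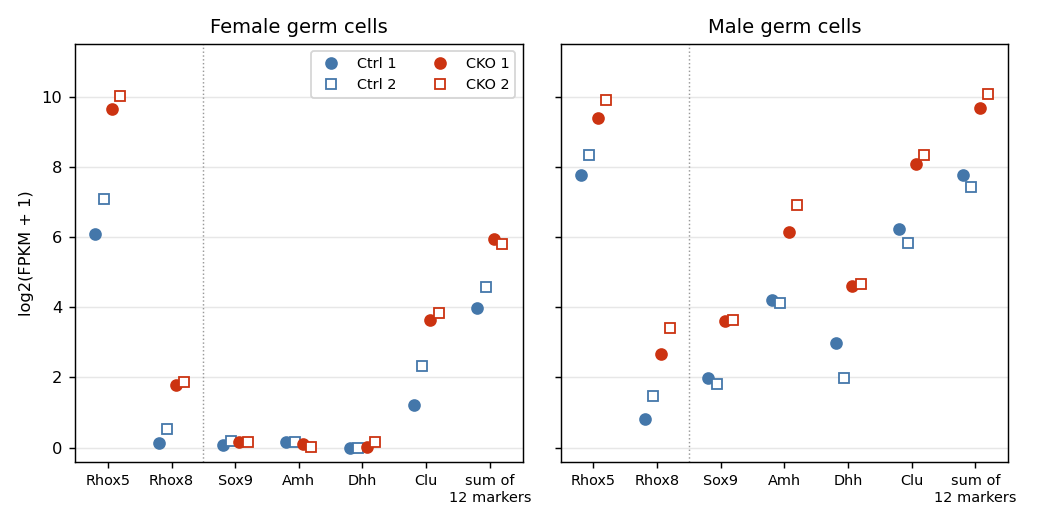
Levels of Rhox5 and Rhox8, of 4 Sertoli cell markers and of the sum of all 12 markers in each library as log2(FPKM + 1), for female (left) and male (right) germ cells, with symbols for group and replicate as in the legend. In males all of them lie higher in Snf5 CKO, and in females Rhox5 and Rhox8 lie higher while Sox9, Amh and Dhh lie near 0 in all libraries.

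Markers of other cells also moved. The 7 germ cell markers, which include Ddx4, Dazl and Mael, summed to between 1845 and 1852 FPKM in female controls and between 1229 and 1318 FPKM in female Snf5 CKO, and to between 3206 and 3227 FPKM and between 1500 and 1673 FPKM in males. They did not move together: in females 1 was called lower and 3 higher (median log2 fold change -0.05), and in males 4 were lower and 1 was higher (median -1.78). Over all tested genes 21.6% were lower and 17.3% higher in females, and 17.4% and 14.4% in males. Markers of pre-granulosa cells, the supporting cells of the ovary, summed to between 12.7 and 15.6 FPKM in female controls and between 34.1 and 36.3 FPKM in female Snf5 CKO. In males the sums were 15.1 to 15.6 FPKM and 41.1 to 45.1 FPKM. Leydig cell markers summed to between 60.4 and 89.8 FPKM in male controls and 27.2 and 29.6 FPKM in male Snf5 CKO, and stromal markers to between 11.9 and 22.6 and between 3.21 and 4.68 FPKM. In females the Leydig sums were 5.36 to 5.62 FPKM and 13.3 to 14.6 FPKM, and the stromal sums 6.30 to 13.9 FPKM and 4.17 to 5.31 FPKM. The sums of blood and endothelial markers overlapped between control and Snf5 CKO in both sexes. The part of these shifts in the member values was not tested.

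The genes on either side of the cluster did not move as one. Of the 30 named genes within 1 Mb of the Rhox span, 19 were tested in each sex, and 4 were lower and 4 higher in females, against 2 lower and 3 higher in males. The share called was 42.1% in females and 26.3% in males, where 38.9% and 31.8% of all tested genes were called. The male count of 5 rose to 8 with the replicate number as a block, and it was 2 without control replicate 1, 8 without control replicate 2 and 3 without Snf5 CKO replicate 2. The called genes were Lonrf3, Pgrmc1, Nkrf, Ndufa1, Slc25a5, Gm9, Mcts1 and a locus of 2 merged Rik genes in females, and Pgrmc1, Slc25a5, Gm9, Cul4b and 6030498E09Rik in males. Slc25a5, which encodes an ADP/ATP carrier of mitochondria, was at 17.4 and 26.6 FPKM in female controls and at 377 and 505 FPKM in female Snf5 CKO (log2 fold change 4.28, SE 0.26, adjusted p = 9.85e-05 from limma), a larger fold than any Rhox gene had in females. Ndufa1, which encodes a subunit of respiratory complex I, was lower in female Snf5 CKO (-2.34, SE 0.42, adjusted p = 0.00313 from limma). Over all X-linked genes outside the Rhox genes, 29.8% were lower and 18.8% higher in females and 26.2% lower and 12.2% higher in males.

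**Figure D4:**
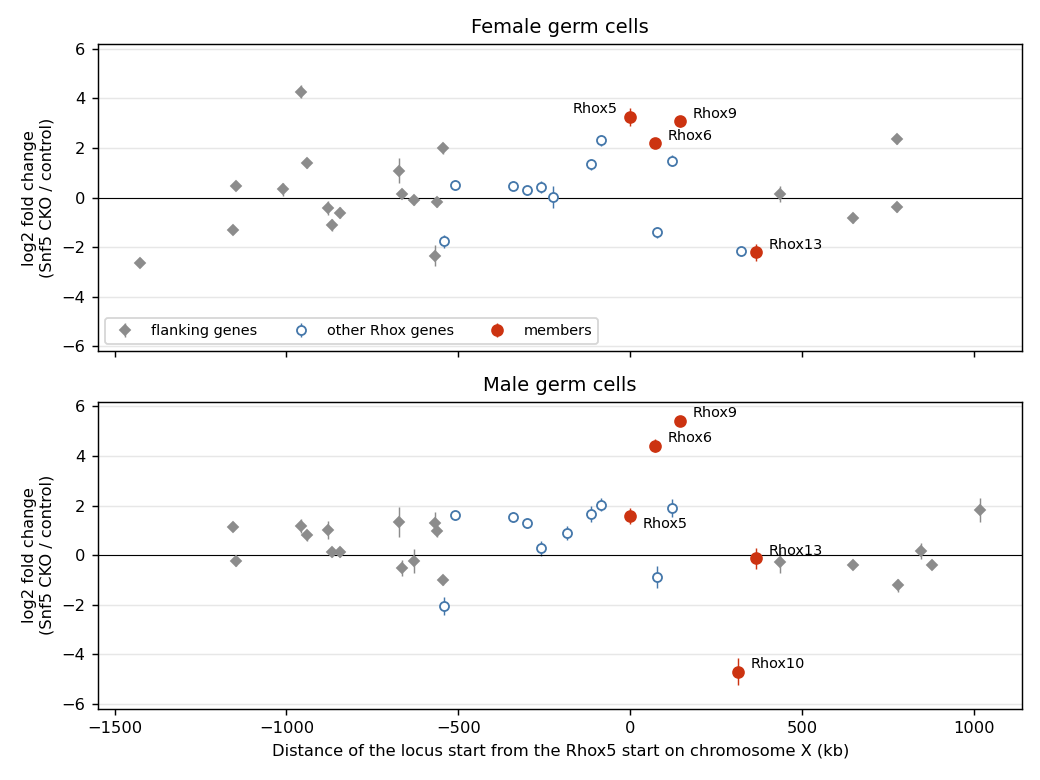
Log2 fold change of Snf5 CKO over control with its standard error for the tested members (red), other Rhox genes (open blue) and genes within 1 Mb of the cluster (grey), against the distance in kb of each locus start from the start of Rhox5 on the X chromosome, for female (top) and male (bottom) germ cells. Rhox5, Rhox6 and Rhox9 lie together above 0 in both sexes, with Rhox7a (Rhox7 in males) among them below 0, and Rhox13 in females and Rhox10 in males lie below 0 at the far end.

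To find genes with a pattern like that of a member, the 8 values of log2(FPKM + 1) were centred on the mean of each table, and the root mean square difference from the member was taken over the 10472 genes tested in both tables. It gives likeness over 8 libraries, which come from 2 tables, and is a description. Rhox5 was nearest to Ube2c, an enzyme of mitotic ubiquitination, at 0.113 log2 units, and then to Lgals1, Syt5, Dnph1 and Efna1. Mean Ube2c was at 47.1 FPKM in female controls and 380 FPKM in female Snf5 CKO, and at 148 and 462 FPKM in males. Rhox6 was nearest to Lefty1, an inhibitor of Nodal signaling, at 0.115 log2 units, and then to Id3, Ak8, Dcxr and Pcbd1. Lefty1 was hardly expressed in female controls, at a mean of 0.0167 FPKM, and reached 4.14 FPKM in female Snf5 CKO, against 12.7 and 284 FPKM in males, so in females its fold in FPKM was far larger than that of Rhox6, and the likeness is one on the log2(FPKM + 1) scale.

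The genes most like Rhox9 were Prap1, Lefty1, Fgf17, Galnt7 and Marveld1, from 0.356 to 0.569 log2 units, and Rhox6 itself was at 0.492 from Rhox9. Rhox10 was nearest to the metallothionein gene Mt2, at 0.414 log2 units, and to Cela2a, Igfbp2, 4921531P14Rik and Apba2. Mean Mt2 was at 95.4 FPKM in male controls and 4.47 FPKM in male Snf5 CKO, but at 4.89 and 5.69 FPKM in females, and so it was expressed in female libraries where Rhox10 was not. Rhox13 was nearest to Nudt6 at 0.208 log2 units, and then to Snord89, Fmr1nb, Ankrd29 and Pigp. Fmr1nb is itself on the X chromosome, and its mean was 510.5 FPKM in female controls and 111 FPKM in female Snf5 CKO, against 33.7 and 41.4 FPKM in males. Rhox10 and Rhox13 were 1.78 log2 units apart, so the members that were lower in Snf5 CKO did not share a pattern over both sexes.

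**Figure D5:**
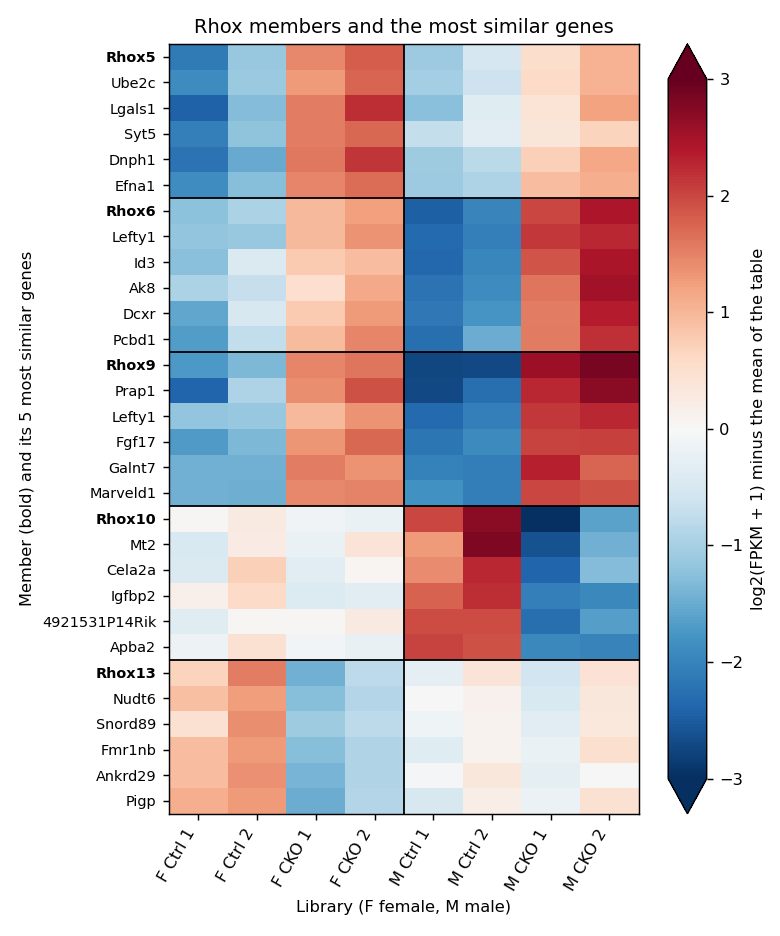
Values of log2(FPKM + 1) minus the mean of the table for each member (bold) and the 5 genes most like it, in the 8 libraries (F female, M male), in blue where below and red where above the mean, with the colours cut at 3 and -3. The Rhox5 block changes most in females, the Rhox6 and Rhox9 blocks most in males, the Rhox10 block nearly only in males and the Rhox13 block nearly only in females.

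Genes known to control Rhox genes or related chromatin form a list of 27, among them DNA methyltransferases, Polycomb subunits and factors of the E2F6 and MGA complex. In females 3 of 24 tested were lower and 9 higher, where 21.6% and 17.3% of all tested genes were. The median log2 fold change was 0.56 beside -0.13 over all genes tested. In males 4 of 26 were lower and 6 higher, where 17.4% and 14.4% of all tested genes were, with a median of 0.64 beside -0.07. Dnmt3l, the cofactor of de novo DNA methylation, was at 102 and 108 FPKM in male controls and at 1.54 and 1.95 FPKM in male Snf5 CKO (log2 fold change -5.27, SE 0.18, adjusted p = 0.00213 from limma), and was at 0.0615 FPKM or less in females. Dnmt3b, a de novo methyltransferase, was higher in females (log2 fold change 2.12, SE 0.21, adjusted p = 0.000293 from limma), and in males it was at 10.2 and 7.66 FPKM in the controls and at 42.5 and 40.4 FPKM in Snf5 CKO (SE 0.20, adjusted p = 0.0026). Tet1, which oxidizes methylated cytosine, was also higher in both, at 2.57 (adjusted p = 0.000175 from limma) and 1.82 (adjusted p = 0.0121). Dmrt1, a regulator of germ cell pluripotency and sex, was at 7.39 and 9.91 FPKM in female controls and at 72.6 and 59.2 FPKM in female Snf5 CKO (2.80, SE 0.21, adjusted p = 0.000131 from limma). Nanos2, which promotes the male fate of germ cells, was lower in males (-2.68, SE 0.25, adjusted p = 0.0026 from limma).

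Rhox10 was set beside genes of spermatogonial stem cells. Of 16 tested in males 7 were lower and 3 higher (median log2 fold change -0.94), where 17.4% and 14.4% of all tested genes were and the median was -0.07. Of 13 tested in females 3 were lower and 8 higher (median 2.15), where 21.6% and 17.3% of all tested genes were and the median was -0.13. Sohlh1, a transcription factor of early spermatogonia, was at 51.1 and 62.1 FPKM in male controls and at 1.44 and 2.14 FPKM in male Snf5 CKO (-4.37, SE 0.22, adjusted p = 0.00213 from limma), a fall close in size to the difference in Rhox10. Lhx1 was higher in males instead, at 5.58 and 4.84 FPKM in the controls and 45.0 and 36.7 FPKM in Snf5 CKO (2.75, SE 0.20, adjusted p = 0.00214 from limma). In females Sall4, a transcription factor of pluripotent and germ cells, was higher (3.80, SE 0.20, adjusted p = 9.74e-05 from limma).

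Other X-linked genes known for expression in germ cells, a list not limited to genes specific to them, were called lower more often than higher. Of 25 loci tested in females 13 were lower and 1, that of the chromatin remodeler gene Atrx, was higher (median log2 fold change -1.06). Of 27 in males 20 were lower and 1 was higher (median -1.74). Over all tested genes 21.6% were lower and 17.3% higher in females, and 17.4% and 14.4% in males. Over all X-linked genes outside the Rhox genes these shares were 29.8% and 18.8% in females and 26.2% and 12.2% in males. Nxf2, a germ cell RNA export factor, was at 373 and 327 FPKM in male controls and at 6.51 and 11.1 FPKM in male Snf5 CKO (-5.20, SE 0.28, adjusted p = 0.00213 from limma). Tex11, a meiotic gene, was lower in females (-3.19, SE 0.19, adjusted p = 9.85e-05 from limma) and in males (-2.35, SE 0.16, adjusted p = 0.00213). Of the other homeobox genes of the germ line, placenta and early embryo, 4 were tested in females, of which 3 were higher and 1 was lower. Of the 9 tested in males 4 were higher and 2 were lower, beside the shares over all tested genes given above. Nanog, a pluripotency factor, was higher in females (4.77, SE 0.20, adjusted p = 9.74e-05 from limma) and in males (2.18, SE 0.16, adjusted p = 0.00216), as Rhox5, Rhox6 and Rhox9 were. Cdx2, a homeobox gene of the trophoblast, was at 3.38 and 3.64 FPKM in female controls and at 102 and 77.4 FPKM in female Snf5 CKO (4.32, SE 0.20, adjusted p = 9.74e-05 from limma), and it was at 0.484 FPKM or less in males.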

How the data were processed

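The libraries were made by the authors with SMART-Seq v4 and Nextera XT and sequenced as paired ends. The authors mapped the reads with Tophat, ran Cufflinks on UCSC mm10 and deposited 1 table of FPKM values with confidence bounds for each sex. The submitters' processing notes list TopHat2 2.2.1 and Cuffdiff 2.1.1, and the paper gives other versions. The gene annotation and the scaling for library size are not given in the sources used here, and without counts no counting interval is given.

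Starts in the tables count from 0, and 1 was added. A gene name was represented by its locus with the highest mean FPKM, merged loci counted once, and unnamed loci were left out. Genes whose FPKM averaged 1 or more over a table's 4 libraries were fitted per sex in R 4.3.3 with limma 3.58.1 on log2(FPKM + 1), by lmFit and eBayes with trend. The fit was also run on simulated data with independent noise in each library. That run does not cover the correlation between same-numbered libraries given below. For a single gene, exact permutation of 2 and 2 libraries reaches p = 0.333 at the lowest. Python 3.11.15, pandas 2.3.3 and matplotlib 3.10.9 were used for tables and figures.

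The replicate number was regarded as a batch, because the labels name the raw files of replicates 1 and 2 in different styles. The male value columns call this number an experiment. The main fit holds no term for it, so its SE and adjusted p leave out the pairing of same-numbered libraries. The deviations of same-numbered libraries correlated across genes at 0.500 in females and 0.607 in males. A block for it was an alternative, as were another pseudocount, filters, scalings, variance models, locus rules and each library left out.

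The members, the gene lists and the rules were chosen with earlier results of these data known. By the rule for names these were all Rhox genes, Smarcb1, the 5 genes most like each member, the called flanking genes, up to 4 called genes of a list per sex by adjusted p and up to 2 others by control level, and the 3 highest markers of a cell type. Amh, Sox9 and Dhh were named beside them as defining markers, genes with opposite directions in the sexes were named after their values were seen, and the genes given with full values were picked from these after their values were seen.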

Additional observations from a re-analysis of the deposited data

Results flagged for a closer look

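For 19 of the flanking genes and the genes of the 4 pathway lists that were tested in both tables, both Snf5 CKO libraries of one sex lay above both controls and both Snf5 CKO libraries of the other sex lay below both controls. No Rhox gene did so. Over all tested genes 36.4% lay above both controls in both Snf5 CKO libraries and 45.1% below them in females. In males 34.5% lay above and 40.0% below. The share of all genes that were opposite between the sexes was not counted. Nothing is therefore read from the 19 or from the lack of Rhox genes among them. The difference between the sexes itself was not tested, since the tables were normalized separately. Log2 fold changes are given here for females and then for males.

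For 7 of the 19 both sexes passed the test, in opposite directions. These were the neighbours Gm9 (2.0 and -1.01) and Pgrmc1 (-1.3 and 1.15), the DNA methyltransferase gene Dnmt3a (1.3 and -2.49), the histone methyltransferase gene Ehmt2 (1.08 and -1.65), the oocyte homeobox gene Lhx8 (-2.02 and 3.3), the germ cell gene Nanos3 (2.82 and -2.16) and the pluripotency gene Utf1 (2.79 and -1.2).

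The others were not called in at least 1 sex. They were the neighbours Ndufa1 (-2.34 and 1.3), Akap17b (0.48 and -0.24) and Rnf113a1 (-0.18 and 0.96). Of the genes that control Rhox genes or related chromatin they were E2f6 (1.88 and -0.57), Eed (0.36 and -0.99), Ehmt1 (-0.43 and 0.85), L3mbtl2 (-0.75 and 0.89) and Pcgf6 (-0.46 and 0.34). Of the remaining lists they were Lin28a (3.24 and -0.88), Mageb16 (0.98 and -1.21), Xlr4a (-2.55 and 0.47) and Zfx (-0.88 and 1.58).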

How the results depend on the processing

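The log2 fold changes of the fitted members kept their direction under every alternative run, apart from that of male Rhox13, whose groups overlap and which was between -0.63 and 0.37 with single libraries left out. Male Rhox9 was at 5.71 with a pseudocount of 0.1 and at 5.58 with median-of-ratios scaling, beside 5.43. In males a minimum mean of 5 FPKM left fewer genes to test, with 1347 genes lower, 4 other Rhox genes, 3 flanking genes and 106 X-linked genes called. The count of male flanking genes called was 2 to 8 with single libraries left out, beside 5: 2 without control replicate 1, 8 without control replicate 2 and 3 without Snf5 CKO replicate 2. The cause was not tested. With the replicate number as a block, 8 male flanking genes were called, and 4509 genes in females and 4066 in males, beside 4484 and 3904, all of which kept their call; it moved no other count by over 1.5 times. The share of calls that were higher was 44.5% in females and 45.2% in males, 45.8% and 33.8% with libraries scaled to a common sum, and 52.8% and 54.5% with median-of-ratios scaling. These scalings moved the median of all genes by -0.19 (common sum, males) and 0.15 (median of ratios, both sexes) on the log2 scale. With 2 libraries a group and no counts, small differences and genes near 0 could not be resolved.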

Other observations

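A locus without a gene name lies inside the Rhox span of the X chromosome, from 37677545 to 37683565 in the female table, between Rhox2h and Rhox5. It was at 20.6 and 31.6 FPKM in female controls and at 4.25 and 5.48 FPKM in female Snf5 CKO, so the groups did not overlap and its direction was opposite to that of Rhox5. At nearly the same position the male table lists a locus at 5.27 and 6.25 FPKM in the controls and at 3.02 and 8.38 FPKM in Snf5 CKO, which overlap. Another male locus there was at 3.83e-05 and 0 FPKM in the controls and at 0.239 and 0.350 FPKM in Snf5 CKO. Further loci without a name lie inside the span and are not described here. Loci without a name were not part of the fit, so these values have no test.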
